A study of Rattus norvegicus with 16 samples.

Results

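Genes that regulate myogenic transcription, muscle growth signals and exit from the cell cycle were followed in the rat across an eye muscle (extraocular muscle, EOM) and a limb muscle (tibialis anterior, TA), at the neuromuscular junction and along the rest of the fibre. They are the myogenic regulatory factors Myod1, Myog and Myf6, the inhibitors of DNA binding Id1, Id2 and Id3, the Notch effector Heyl, the secreted antagonist follistatin (Fst), the cell-cycle inhibitor Cdkn1a (p21) and the chemokine receptor Cxcr4. Members were the probe sets that the array annotation assigns to one of these symbols. That gave 16 probe sets for 10 genes, out of 20826 probe sets with 1 gene name. All 10 genes were among the 10416 tested, each through its probe set of highest mean, and 12 of the 16 probe sets passed the filter on low values.

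The study collected laser-captured tissue from 4 rats. The numbers 15, 25, 27 and 29 in the sample titles are read here as the rats, which the labels do not state outright. There were 4 arrays in each of 4 groups: EOM synapse (junctions of the rectus eye muscles), EOM fibre (non-junctional regions of the same muscles), TA synapse (junctions of a limb muscle) and TA fibre (non-junctional regions of it). No treatment or genetic change was named in any group, and strain and age were not given in the sources used here. About 1000 junctions, found by acetylcholinesterase staining of 10 µm sections, were pooled for each muscle with a like amount of non-junctional tissue, and the RNA was amplified in 2 rounds before hybridisation to Affymetrix rat arrays. Each capture therefore holds every cell type under the laser, and fewer cells of a type and less RNA per cell cannot be told apart.

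Levels are given on the log2 scale, as log2(intensity + 16) after quantile normalisation, so a difference of 1 is a doubling, somewhat understated for dim probe sets. Per-array values are listed for rats 15, 25, 27 and 29 in that order. Differences carry the standard error of a limma fit with the rat as a block, and a gene was called at an adjusted p under 0.05 (Benjamini-Hochberg over all 10416 genes). Array medians ran between 33.43 and 57.04 intensity units. Depth has no counterpart on arrays, and the precision is limited by the 4 arrays a group. The captures carried their labelled identity: 9 of 10 junction genes tested, such as the acetylcholine receptor subunit Chrna1, were higher at the junction than in the fibre in both muscles. Muscle fibre markers were bright in all 4 groups, with mean levels over 12 genes between 13.49 and 14.21 on every array, although 4 of the 12 were lower at the EOM synapse than at the TA synapse and none higher (median -0.41). The correlation between arrays of 1 group lay between 0.867 and 0.949.

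The myogenic regulatory factors are basic helix-loop-helix (bHLH) proteins that bind E-box sequences together with E proteins and switch on muscle genes. Id proteins lack the DNA-binding region and hold E proteins in inactive pairs, and Hey and Hes repressors act downstream of Notch to keep precursor cells undifferentiated. Follistatin binds activins and myostatin outside the cell and so relieves a brake on muscle growth. Extraocular muscles are known for satellite cells that stay active in the adult, for fibres that keep embryonic and neonatal myosins, and for fibres with several junctions.

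Eye muscle and limb muscle differed in follistatin and p21 far more than in the myogenic factors. Between EOM fibre and TA fibre, 5 of the 10 genes were called, against 15.6% of all genes tested, with 4 higher in EOM (Id2, Heyl, Fst and Cdkn1a, background 8.4%) and 1 lower (Cxcr4, background 7.15%). The median difference of the 10 genes was 0.51, beside 0.03 over all genes. Between EOM synapse and TA synapse, 2 of the 10 were called, Fst and Cdkn1a, both higher in EOM. Over all genes 16.4% were called there, 7.82% higher in EOM and 8.61% lower. Their median difference was 0.34, beside 0.01 over all genes.

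Within EOM, 2 of the 10 genes were called between synapse and fibre, Fst and Cxcr4, both higher at the synapse, where 10.1% of all genes were called, 5.62% higher and 4.51% lower. The median of the 10 differences was -0.28, beside -0.04 over all genes. Within TA, limma called 0 of the 10 genes between synapse and fibre, where 10.2% of all genes were called (6.7% higher and 3.53% lower). Myf6 alone had an unadjusted p under 0.05. The difference between the 2 junction contrasts was called for Fst alone, where 0.922% of all genes were called, 0.259% with the larger value in EOM and 0.662% with the larger value in TA. These comparisons share arrays, so the values of 1 comparison bear on the next.

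**Figure D1:**
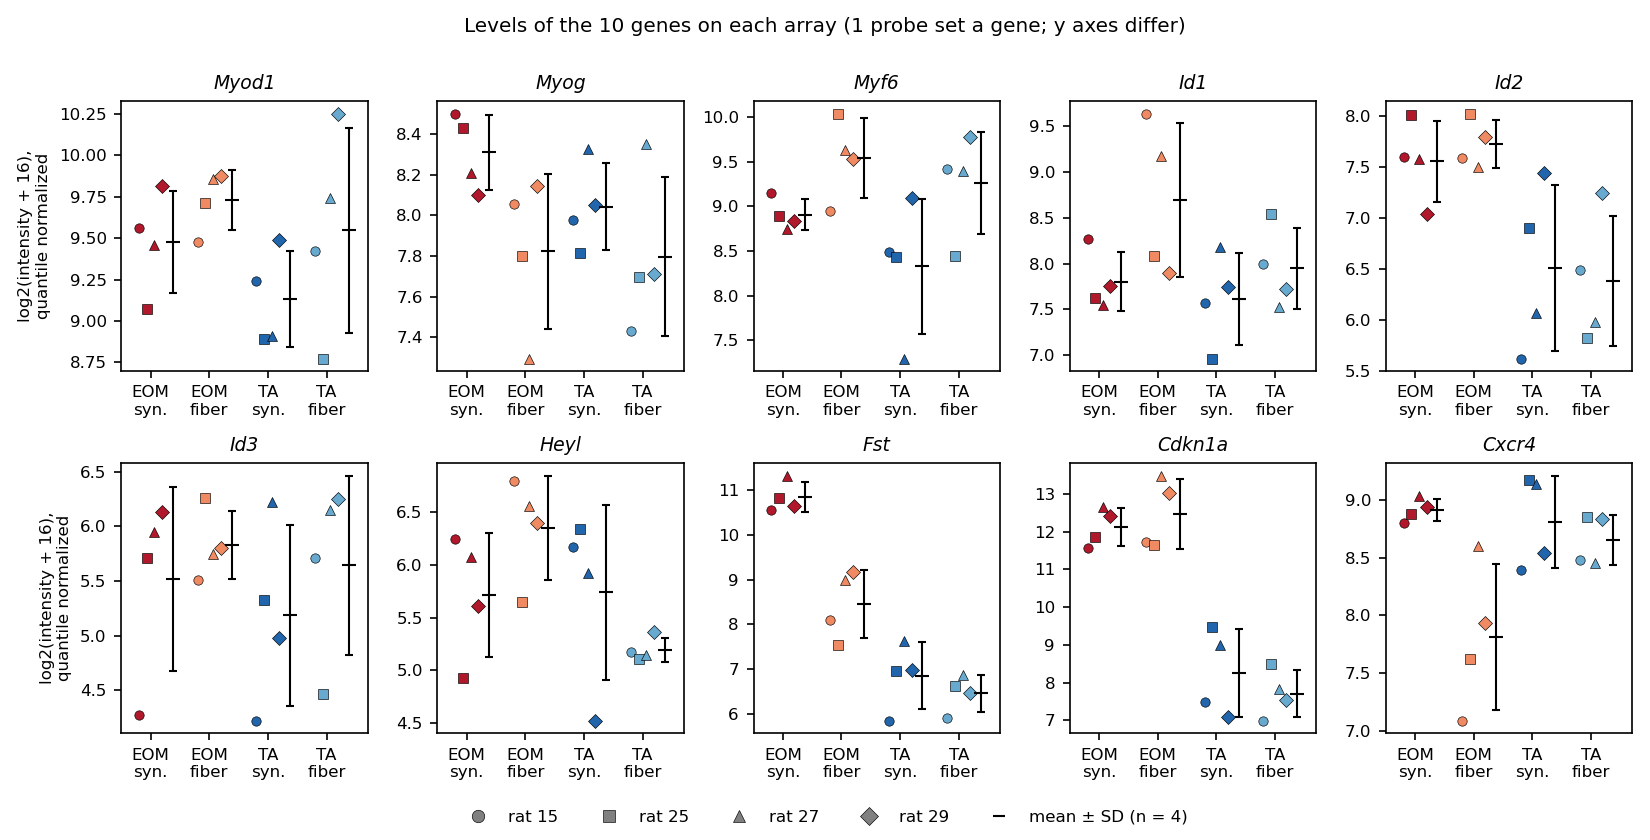
Levels of the 10 genes on each of the 16 arrays, as log2(intensity + 16) after quantile normalisation, with EOM synapse, EOM fibre, TA synapse and TA fibre from left to right. Symbols mark the rat and bars the mean ± SD of 4 arrays. Fst stands between 10.56 and 11.32 at the EOM synapse and at or below 9.17 elsewhere, and Cdkn1a stands above 11.5 on every EOM array and below 9.5 on every TA array.

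Myod1, which commits cells to the muscle lineage and in adult muscle is linked to fast fibres, had no called difference. At the EOM synapse its levels were 9.56, 9.07, 9.46 and 9.81, and in EOM fibre 9.48, 9.71, 9.85 and 9.87. At the TA synapse they were 9.24, 8.89, 8.91 and 9.49, and in TA fibre 9.42, 8.77, 9.74 and 10.25. The 4 groups overlapped, and TA fibre alone spanned both the lowest and the highest array. EOM fibre exceeded TA fibre by 0.18 ± 0.21 (95% interval -0.28 to 0.64), and EOM synapse exceeded TA synapse by 0.34 ± 0.21 (-0.12 to 0.80). Those intervals leave out a doubling or a halving between the muscles.

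Myog (myogenin), which drives terminal differentiation and rises in denervated muscle, also had no called difference. Its levels were 8.50, 8.43, 8.21 and 8.10 at the EOM synapse and 8.06, 7.80, 7.30 and 8.14 in EOM fibre. They were 7.98, 7.81, 8.32 and 8.05 at the TA synapse and 7.43, 7.70, 8.35 and 7.71 in TA fibre. The EOM synapse exceeded EOM fibre by 0.49 ± 0.25 (95% interval -0.05 to 1.02, adjusted p = 0.249), in 3 of 4 rats. EOM fibre and TA fibre differed by 0.03 ± 0.25 (-0.51 to 0.56), and TA synapse and TA fibre by 0.24 ± 0.25 (-0.29 to 0.78).

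Myf6 (MRF4), the myogenic factor most abundant in adult fibres, stood lower at both synapses than in the fibre, but neither difference was called. EOM synapse arrays gave 9.15, 8.89, 8.75 and 8.84 and EOM fibre arrays 8.95, 10.04, 9.63 and 9.53. TA synapse arrays gave 8.49, 8.43, 7.29 and 9.09 and TA fibre arrays 9.41, 8.44, 9.40 and 9.77. In TA the difference was -0.93 ± 0.35, negative in 4 of 4 rats, with an adjusted p of 0.118. It was called with a pseudocount of 64 (adjusted p = 0.0427) and without the TA fibre array of rat 25 (0.0318), the lowest of its group. In EOM the difference was -0.63 ± 0.35 (adjusted p = 0.288), negative in 3 of 4 rats.

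Myod1 and Myf6 varied together over the 16 arrays (r = 0.78), whereas Myog went with neither (r = -0.15 with Myod1 and -0.35 with Myf6). These correlations are descriptions over arrays that share rats and groups. The 3 genes most like Myf6 were Cdh15 (r = 0.93), the muscle cadherin M-cadherin, Cox4i1 (r = 0.90), a subunit of cytochrome c oxidase, and Bpnt1 (r = 0.90), a nucleotidase. For Myod1 they were Cox7c (r = 0.87), another subunit of that oxidase, Lsm2 and Arid5b, and for Myog they were Rhof (r = 0.79), Tm9sf1 and Galc.

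RefSeq promoter sequence (build GRCr8, the 250 bases before the annotated start) was at hand for 8 of the 10 genes, not for Myod1 and Fst. The myogenin promoter is shown because its E-boxes and MEF2-type site are the textbook example of control by these factors. Those of Cdkn1a and Id2 are shown as the members with called differences between the muscles whose windows held an E-box. Capitals mark matches to the E-box CANNTG or to the MEF2-type core CTANNNNTA, searched on both strands. Myog is on chr13:48297226-48297475 (plus strand), Cdkn1a on chr20:7150682-7150931 (plus strand) and Id2 on chr6:47470996-47471245 (minus strand).
Myog: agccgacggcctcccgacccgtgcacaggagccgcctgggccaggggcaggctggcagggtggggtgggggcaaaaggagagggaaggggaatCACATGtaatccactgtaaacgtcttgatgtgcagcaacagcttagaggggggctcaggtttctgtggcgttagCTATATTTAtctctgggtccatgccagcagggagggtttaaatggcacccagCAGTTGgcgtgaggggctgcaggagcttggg
Cdkn1a: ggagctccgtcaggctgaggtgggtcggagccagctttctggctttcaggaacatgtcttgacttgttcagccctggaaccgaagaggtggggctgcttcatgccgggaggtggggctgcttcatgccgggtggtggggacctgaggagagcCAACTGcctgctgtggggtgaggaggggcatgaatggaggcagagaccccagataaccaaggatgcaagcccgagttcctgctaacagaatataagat
Id2: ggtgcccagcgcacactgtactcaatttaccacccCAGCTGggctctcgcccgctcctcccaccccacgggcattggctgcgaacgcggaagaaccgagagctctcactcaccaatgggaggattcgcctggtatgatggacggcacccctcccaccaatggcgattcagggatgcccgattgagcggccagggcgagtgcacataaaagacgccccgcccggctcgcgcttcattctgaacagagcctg
In Myog the E-boxes CACATG and CAGTTG began 157 and 31 bases before the start and the MEF2-type match CTATATTTA 83 bases before it. The E-box of Cdkn1a, CAACTG, began 98 bases before the start, and that of Id2, CAGCTG, 215 bases before it. Myf6 and Id1 each held an E-box and a MEF2-type match as well, and Id3, Heyl and Cxcr4 held neither in this window. An E-box stood in 65.5% of all 33469 promoter windows of this length and a MEF2-type match in 20.0%, so a match is common and is given as a description of sequence.

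Of 12 partner and muscle transcription factor genes tested, 1 was higher in EOM fibre than in TA fibre and none lower, with a median of 0.27 beside 0.03 over all genes. At the synapses 2 were higher in EOM and 1 lower, and Eya1, a transcriptional coactivator, was higher by 1.23 ± 0.22 (adjusted p = 0.00201). Tcf12 (HEB), an E protein that pairs with the myogenic factors, was higher at the EOM synapse than in EOM fibre, with mean levels of 9.77 and 8.64 and a difference of 1.13 ± 0.20 (adjusted p = 0.00245). In TA it was higher at the synapse by 0.88 ± 0.20 (adjusted p = 0.0112), a call that was lost without rat 15, 25 or 27 (adjusted p 0.0555 to 0.0843).

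Id2, the Id family member with a called difference, was higher in EOM fibre than in TA fibre by 1.34 ± 0.36 (adjusted p = 0.0208). EOM fibre arrays read 7.59, 8.03, 7.50 and 7.79, all above the TA fibre arrays at 6.49, 5.82, 5.98 and 7.24, and every rat showed the direction. At the synapses Id2 read 7.60, 8.01, 7.58 and 7.04 in EOM against 5.62, 6.90, 6.07 and 7.44 in TA. There the difference was 1.05 ± 0.36 (adjusted p = 0.0609), the groups overlapped through rat 29, and the call was made without that rat (adjusted p = 0.0144). It was also made with values as deposited (0.0348), a stricter filter (0.0476) or a pseudocount of 64 (0.0241). Between synapse and fibre the difference was -0.17 ± 0.36 in EOM and 0.12 ± 0.36 in TA, neither of them called.

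The fibre difference of Id2 is near the threshold. It was lost without the EOM fibre array of rat 15, 25 or 27 or the TA fibre array of rat 25 or 27 (adjusted p 0.0549 to 0.0751). It was also lost without rat 15, 25 or 27 as a whole (0.0590 to 0.123), and when only the 8 fibre arrays were fitted (0.0532). The difference itself stayed between 1.03 and 1.61 in all these leave-outs. The other Id2 probe set, 1368870_at, exceeded its array's median on 2 arrays and was not tested.

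Id1 and Id3, which like Id2 are targets of bone morphogenetic protein (BMP) signalling, had no called difference. EOM fibre held the highest Id1 values, at 9.63 and 9.17 in rats 15 and 27, but its other arrays, at 8.08 and 7.89, lay within the TA fibre values of 8.0, 8.54, 7.53 and 7.73. The Id1 difference between the fibre groups was 0.75 ± 0.35 (adjusted p = 0.180), and 1.10 without the TA fibre array of rat 25, where it was called (adjusted p = 0.0460). At the synapses Id1 read 8.27, 7.63, 7.55 and 7.75 in EOM against 7.57, 6.96, 8.18 and 7.74 in TA, a difference of 0.19 ± 0.35. Within EOM, Id1 was lower at the synapse than in fibre in 4 of 4 rats (-0.89 ± 0.35, adjusted p = 0.132), and a pseudocount of 64 made that a call (0.0481).

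Id3 was dim, above its array's median on 6 of 16 arrays. It read 4.28, 5.71, 5.95 and 6.13 at the EOM synapse and 5.51, 6.26, 5.75 and 5.80 in EOM fibre. TA synapse arrays gave 4.22, 5.33, 6.22 and 4.98 and TA fibre arrays 5.71, 4.47, 6.15 and 6.25. The differences lay between -0.46 and 0.33 with standard errors of 0.40, and the 95% interval within TA, -1.33 to 0.41, includes a 2-fold fall. A list of other Id, bHLH and zinc-finger repressors was kept apart from the Notch list, which holds Hes1 and Hey2. Of 6 of its genes tested, limma called none in any of the 5 comparisons. Between 0 and 2 of them had an unadjusted p under 0.05. Their median difference was 0.30 between the fibre groups, 0.22 between the synapses, -0.32 within EOM and -0.34 within TA.

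Among BMP pathway genes, Nog and Bmp5 had the called differences of largest size. Noggin (Nog), which sequesters BMPs, had a mean level of 9.85 at the EOM synapse against 6.0 in EOM fibre, a difference of 3.85 ± 0.34 (adjusted p = 8.55e-06). In TA the means were 10.69 at the synapse and 6.12 in fibre, a difference of 4.57 ± 0.34. Bmp5, a BMP ligand, was lower in EOM than in TA, by -4.0 ± 0.35 at the synapse and by -1.87 ± 0.35 in fibre (adjusted p = 0.00286). Its mean at the TA synapse was 11.53 against 8.63 in TA fibre, while the EOM synapse and EOM fibre averaged 7.53 and 6.76. Bmp2, another BMP ligand, went the other way between the fibre groups, higher in EOM by 1.67 ± 0.47 (adjusted p = 0.0280). Over the 21 BMP pathway genes tested, 1 was called higher and 1 lower between the fibre groups, none higher and 1 lower between the synapses, 1 and 1 within EOM, and 3 and none within TA. Their median differences between the muscles were 0.24 in fibre and -0.11 at the synapse.

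Heyl, a Hey-family repressor and Notch target that marks quiescent satellite cells in mouse, was higher in EOM fibre than in TA fibre by 1.16 ± 0.35 (adjusted p = 0.0392). The EOM fibre arrays read 6.80, 5.65, 6.56 and 6.40, all above the narrow TA fibre range of 5.17, 5.10, 5.14 and 5.36. At the synapses it read 6.25, 4.92, 6.08 and 5.61 in EOM against 6.17, 6.35, 5.93 and 4.52 in TA, which overlap, with a difference of -0.03 ± 0.35. Within EOM it was lower at the synapse in 4 of 4 rats, by -0.64 ± 0.35, and within TA it was higher in 3 of 4 rats, by 0.55 ± 0.35. The difference between these 2 contrasts, -1.18 ± 0.50, was not called (adjusted p = 0.391).

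Heyl is a dim probe set, with intensities of 31.0 to 109 in EOM fibre and 16.5 to 19.5 in TA fibre against array medians of 33.43 to 57.04. Its call was lost without the EOM fibre array of rat 15, 27 or 29, without the TA fibre array of rat 15, 25 or 27 (adjusted p 0.0629 to 0.123), and without rat 15 or 27 as a whole (0.197 and 0.169). It was lost too with no filter (0.0581), a pseudocount of 1 (0.0872), or only the fibre arrays fitted (0.0515). A second Heyl probe set, 1390882_at, exceeded its array's median on 2 arrays.

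Among other Notch genes, Hey2, a relative of Heyl, was the one called between the fibre groups, with means of 6.93 in EOM and 4.96 in TA (difference 1.97 ± 0.51, adjusted p = 0.0189). Hey2 was dim in TA fibre, where its mean lay below the lowest Heyl array (5.10). That call was lost without the array of rat 15 or 27 in EOM fibre or of rat 15 or 25 in TA fibre (adjusted p 0.0606 to 0.0752) and without rat 15, 25 or 27 (0.0539 to 0.162). It was lost too with only the fibre arrays fitted (0.0986). Hes1, the other main class of Notch-driven repressor, had a mean of 8.36 at the EOM synapse against 7.07 in EOM fibre (difference 1.29 ± 0.21, adjusted p = 0.00134). In TA its means were 8.51 and 7.11, a difference of 1.41 ± 0.21. Nrarp, a feedback inhibitor of Notch, averaged 6.55 at the EOM synapse against 8.0 at the TA synapse, lower by -1.46 ± 0.20 (adjusted p = 0.000273). Of 22 Notch genes tested, 1 was higher and none lower in EOM fibre than in TA fibre, with a median of 0.28, and 1 was higher and 2 lower at the EOM synapse than at the TA synapse, with a median of 0.26. Within EOM 1 was higher at the synapse and 2 lower, and within TA 3 were higher and none lower.

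Satellite cell markers were tested because Heyl and the myogenic factors are also used in these cells. Of 10 such genes besides Heyl, 4 were called higher in EOM fibre than in TA fibre, where 8.4% of all genes were called higher. None was called lower, and their median was 0.43. The summed intensity of the 10 was 1959 to 3320 on EOM fibre arrays against 1238 to 1639 on TA fibre arrays. At the synapses it was 3779 to 4673 on EOM arrays against 2949 to 3297 on TA arrays. Of the 10, limma called 1 between the synapses, Itga7, higher in EOM (adjusted p = 0.0471), where 7.82% of all genes were called higher. That call was lost on leaving out any rat (0.0635 to 0.226). Of the 4 called between the fibre groups, Vcam1 had an adjusted p of 0.0499 in limma. Its call was lost with no filter (0.0705), a pseudocount of 1 (0.0800) or only the fibre arrays fitted (0.0895), and without any rat (0.0548 to 0.245). Itga7 (0.00773) lost its call without rat 15 or 27 (0.0598 and 0.0522) and with only the fibre arrays fitted (0.0635). The others were Chodl, higher by 1.17 ± 0.30 (adjusted p = 0.0176), and Sdc4, higher by 0.71 ± 0.22 (0.0460). How far these depend on single arrays is not given here. Pax7 and Myf5, the defining genes of these cells, were on the list, of whose 15 genes besides Heyl 11 had a named probe set. Neither was among the called genes, and their values are not given here. The part of satellite cells in the Heyl and Id2 values was not tested.

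Follistatin showed the largest junction difference of the 10 genes, at the EOM synapse. EOM synapse arrays read 10.56, 10.83, 11.32 and 10.65, and EOM fibre arrays 8.11, 7.54, 8.99 and 9.17. TA synapse arrays read 5.84, 6.96, 7.63 and 6.98, and TA fibre arrays 5.90, 6.61, 6.87 and 6.46. The EOM synapse stood above every other array, EOM fibre stood above TA fibre with no overlap, and the 2 TA groups overlapped. In deposited intensity units the EOM synapse held 1427 to 2315 and the TA synapse 36.2 to 175.

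The EOM synapse exceeded the TA synapse in Fst by 3.99 ± 0.29 (a 15.9-fold difference on this scale, adjusted p = 1.31e-06). EOM fibre exceeded TA fibre by 1.99 ± 0.29 (adjusted p = 0.000423), and the EOM synapse exceeded EOM fibre by 2.39 ± 0.29 (adjusted p = 0.000146). Each of the 3 was seen in 4 of 4 rats and was called under every alternative run, including each array or rat left out. In TA the synapse exceeded the fibre by 0.39 ± 0.29 (95% interval -0.22 to 1.01, adjusted p = 0.457), in 3 of 4 rats.

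The junction difference of Fst was larger in EOM than in TA by 2.00 ± 0.40 (adjusted p = 0.0326). Rat by rat the excess was 2.51, 2.94, 1.58 and 0.96. Its size held between 1.67 and 2.34 with any 1 array or rat left out, while the call was near the threshold. It was lost without the rat block (adjusted p = 0.122), with values as deposited (0.0572), with no filter (0.0524) and with a pseudocount of 1 (0.108). It was lost on leaving out the EOM fibre array of rat 27, the EOM synapse array of rat 15, 25 or 27, the TA synapse array of rat 15 or 29, or any TA fibre array (0.0534 to 0.0877), and on leaving out any rat (0.0627 to 0.192). The second Fst probe set, 1387843_at, gave 3.13 between the synapses, 2.08 between the fibre groups, 1.61 within EOM and 0.56 within TA, with an excess of 1.05 (adjusted p = 0.273 over 13647 probe sets).

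**Figure D2:**
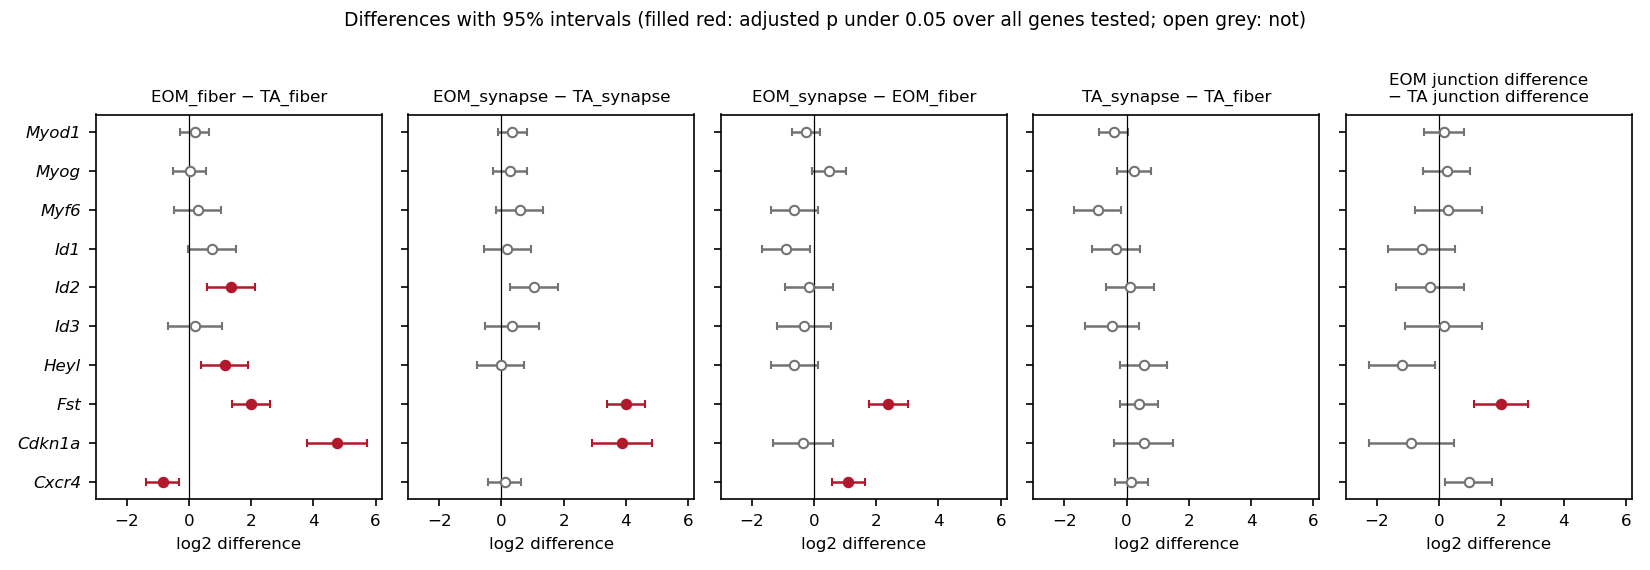
Differences on the log2 scale for the 10 genes in the 5 comparisons, each with its 95% interval from the limma fit, where positive means higher in the group named first. Filled red points have an adjusted p under 0.05 over all genes tested. Fst and Cdkn1a stand far to the right in both comparisons of EOM with TA, and Fst also within EOM, while the 3 myogenic factors have intervals that include or come close to 0.

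Genes whose levels ran most like Fst over the 16 arrays were Ywhaq (r = 0.96), a 14-3-3 protein, Erbin (r = 0.95), which binds the receptor ErbB2 at the synapse, and Rnf13 (r = 0.94), a ubiquitin ligase. Mean levels of Erbin were 11.08 at the EOM synapse, 9.97 in EOM fibre, 9.51 at the TA synapse and 8.99 in TA fibre. Among the 10 genes, the closest was Cdkn1a (r = 0.83), again as a description over 4 groups that differ in both.

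Myostatin (Mstn), which follistatin binds, and the inhibin subunits Inha, Inhbb and Inhbc did not pass the filter on low values, so their levels were not compared. Inhba and Gdf11, also on the list of activin, myostatin and TGF-beta genes, are not described here. Fstl3, a follistatin relative, had deposited intensities of 61.8, 6.44, 36.7 and 61.6 at the EOM synapse and 2.69 to 6.65 in EOM fibre. The fibre values lay far under the array medians, so no fold is given, and the limma call (adjusted p = 0.0127) was lost without the EOM synapse array of rat 27 or 29 or the EOM fibre array of rat 15 (0.0516 to 0.0568) or without rat 15, 27 or 29 (0.0652 to 0.112). Decorin (Dcn), a matrix proteoglycan that binds TGF-beta and also a fibroblast marker here, was higher in EOM fibre than in TA fibre by 1.84 ± 0.28 (adjusted p = 0.000607) and at the EOM synapse than at the TA synapse by 1.66 ± 0.28 (adjusted p = 0.00113). Tgfb2, a ligand of the wider family, averaged 7.63 at the EOM synapse against 9.09 at the TA synapse, lower by -1.46 ± 0.20 (adjusted p = 0.000215). Smad3, which carries the activin and TGF-beta signal, was lower at the synapse than in fibre in both muscles. The difference was -1.10 ± 0.20 in EOM (adjusted p = 0.00354) and -0.77 ± 0.20 in TA (adjusted p = 0.0256). Of 17 activin, myostatin and TGF-beta genes tested, 3 were higher and none lower between the fibre groups, with a median of -0.17. Between the synapses 2 were higher and 2 lower, with a median of 0.03.

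Cdkn1a, the p21 inhibitor of cyclin-dependent kinases that accompanies withdrawal of muscle precursors from the cycle, had the largest difference of the 10 genes between the fibre groups. EOM synapse arrays read 11.56, 11.86, 12.66 and 12.42 and EOM fibre arrays 11.72, 11.65, 13.48 and 13.02. TA synapse arrays read 7.47, 9.48, 8.99 and 7.09 and TA fibre arrays 6.99, 8.49, 7.83 and 7.53. Every EOM array lay above every TA array by more than 2 units. EOM fibre exceeded TA fibre by 4.76 ± 0.45 (a 27.1-fold difference on this scale, adjusted p = 2.24e-05), and the EOM synapse exceeded the TA synapse by 3.87 ± 0.45 (adjusted p = 6.39e-05).

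Both Cdkn1a differences were called under every alternative run and were seen in 4 of 4 rats. Synapse and fibre were not told apart in either muscle, at -0.34 ± 0.45 in EOM (adjusted p = 0.685) and 0.55 ± 0.45 in TA (0.515). The fold rests on 1 probe set, 1388674_at. The other, 1387391_at, lay below the array median on all 16 arrays, at 3.42 to 20.4 intensity units in EOM fibre against 1.40 to 26.9 in TA fibre, and was not tested. The genes most like Cdkn1a were Ttc3 (r = 0.96), a ubiquitin ligase, Scd (r = 0.96), a fatty acid desaturase, and Kcnma1 (r = 0.95), a calcium-activated potassium channel.

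**Figure D3:**
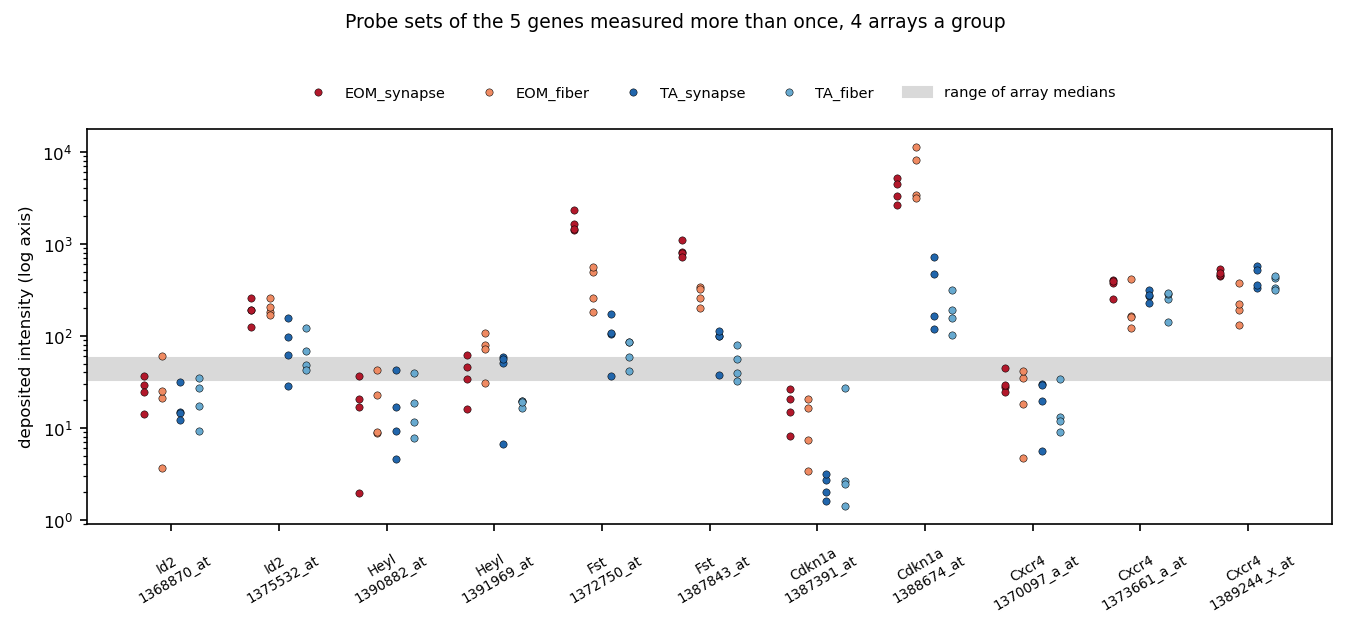
Deposited intensities, on a log axis, of the 11 probe sets of the 5 genes measured by more than 1, with 4 arrays a group and the range of array medians in grey. Both Fst probe sets show the same order of groups. 1 probe set each of Id2, Cdkn1a and Cxcr4 stays mostly within or under the grey band, as do both Heyl probe sets.

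Called differences among other cell-cycle inhibitors ran in both directions. Cdkn1c (p57), its close relative, was higher in EOM fibre than in TA fibre by 4.10 ± 0.32 (means 12.03 and 7.93, adjusted p = 3.83e-06). It was lower at the EOM synapse than in EOM fibre, by -1.96 ± 0.32 (means 10.06 and 12.03, adjusted p = 0.00139). Between the synapses it differed by 1.12 ± 0.32 (adjusted p = 0.0265), with overlapping groups, and that call was lost without the rat block (0.113) and without the EOM or TA synapse array of rat 15, 25 or 29 (0.0693 to 0.105) or without those rats (0.137 to 0.149). Ccng1, a target of p53, was lower in EOM, by -1.45 ± 0.20 at the synapse (adjusted p = 0.000233). Gadd45g, a stress-induced growth inhibitor, was higher in EOM fibre than in TA fibre by 1.65 ± 0.27 (adjusted p = 0.00107). Its relative Gadd45a was higher there by 1.89 ± 0.43 (adjusted p = 0.00952), a call lost without rat 15 (0.0570) or rat 25 (0.0531). Of 17 inhibitors and p53 targets tested, 3 were higher and 1 lower between the fibre groups, with a median of 0.07, and 1 was higher and 1 lower between the synapses, with a median of -0.09.

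Among 15 genes of cell-cycle progression, limma called none between the fibre groups, and none had an unadjusted p under 0.05. Cyclin D2 (Ccnd2) differed at the junction: it averaged 7.40 at the EOM synapse against 11.36 at the TA synapse, lower by -3.97 ± 0.29. Its rise over fibre was 1.54 ± 0.29 in EOM and 5.21 ± 0.29 in TA, and the difference between these was -3.67 ± 0.41 (adjusted p = 0.000486). Cyclin D1 (Ccnd1) was higher at the synapse in both muscles, by 2.41 ± 0.50 in EOM and 2.51 ± 0.50 in TA, the first call being lost with a pseudocount of 1 (adjusted p = 0.0579).

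**Figure D4:**
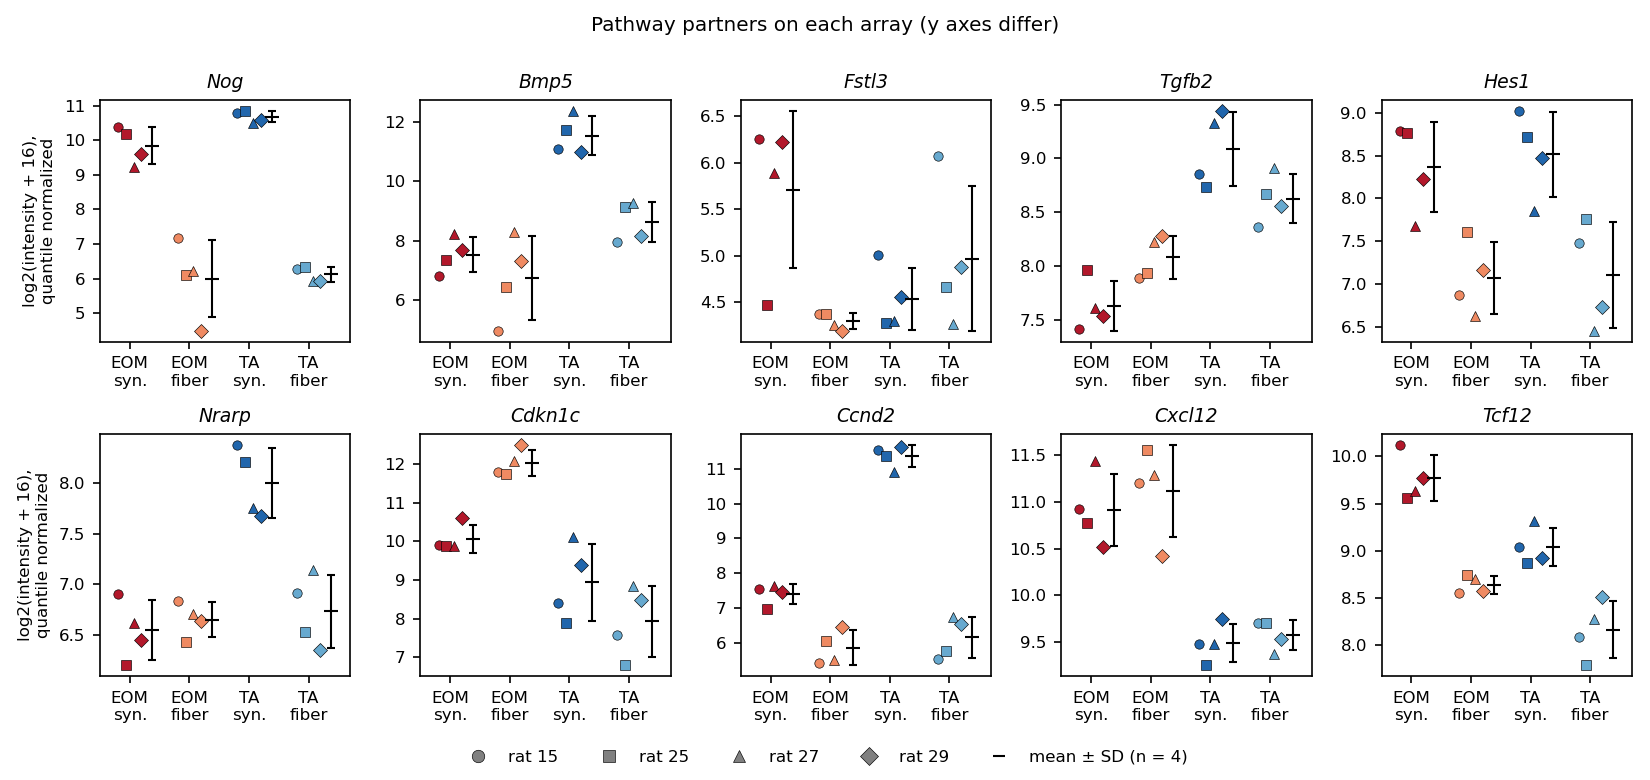
Levels of 10 pathway partners on each array, on the same scale and in the same group order as the plot of the 10 genes, with bars for the mean ± SD of 4 arrays. Nog and Hes1 are high at both synapses, Ccnd2 and Bmp5 at the TA synapse, and Cdkn1c and Cxcl12 are higher in EOM fibre than in TA fibre.

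Cxcr4, the receptor for the chemokine Cxcl12 on migrating muscle precursors, leukocytes and endothelium, was low in EOM fibre. EOM synapse arrays read 8.80, 8.88, 9.03 and 8.94, and EOM fibre arrays 7.09, 7.62, 8.60 and 7.93. TA synapse arrays read 8.39, 9.17, 9.14 and 8.54, and TA fibre arrays 8.48, 8.86, 8.45 and 8.83. The synapse exceeded the fibre in EOM by 1.10 ± 0.25 (adjusted p = 0.0117), with no overlap and in 4 of 4 rats. The same difference in TA was 0.15 ± 0.25 (adjusted p = 0.770), and the excess in EOM, 0.95 ± 0.35, was not called (adjusted p = 0.301).

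EOM fibre was lower than TA fibre in Cxcr4 by -0.85 ± 0.25 (adjusted p = 0.0323), in 3 of 4 rats, and the groups overlapped through rat 27. The synapses of the 2 muscles differed by 0.10 ± 0.25. The fibre call was lost without the rat block (adjusted p = 0.0525), with median centring (0.0516), with no filter (0.0523) and with only the fibre arrays fitted (0.164). It was also lost on leaving out the array of rat 15, 25 or 29 in either fibre group (0.0520 to 0.0993) or 1 of those rats as a whole (0.117 to 0.182). The call within EOM was lost without the EOM synapse array of rat 15 (0.0518) and without rat 15, 25 or 29 (0.118, 0.0651 and 0.0624).

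The other Cxcr4 probe sets were less clear. Probe set 1373661_a_at, annotated to the same accession, gave 0.79 within EOM (adjusted p = 0.120) and -0.38 between the fibre groups (0.434), the same directions with no call. The third, 1370097_a_at, exceeded its array's median on 1 array. The gene most like Cxcr4 was Acvr1 (r = 0.89), a BMP type I receptor, with means of 9.28 at the EOM synapse, 8.43 in EOM fibre, 9.31 at the TA synapse and 9.29 in TA fibre.

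The ligand Cxcl12 was higher in EOM than in TA in both regions. It averaged 11.12 in EOM fibre against 9.58 in TA fibre (difference 1.54 ± 0.25, adjusted p = 0.00097) and 10.91 at the EOM synapse against 9.49 at the TA synapse (1.42 ± 0.25, adjusted p = 0.00158). Rgs16 and Arrb1, which dampen signalling by such receptors, were higher in EOM fibre than in TA fibre by 2.88 ± 0.33 and 2.80 ± 0.33. Of 9 partners tested, 3 were higher and none lower between the fibre groups (median 0.20), and 4 were higher and 1 lower between the synapses (median 0.46). Limma called none within EOM, where 1 had an unadjusted p under 0.05.

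Myog, Cdkn1a and the acetylcholine receptor genes are known to respond to denervation. Of 17 denervation-responsive genes tested, 9 were higher in EOM fibre than in TA fibre and 1 lower, with a median of 0.95, where 15.6% of all genes were called. Between the synapses 1 was higher in EOM and 2 lower (median 0.04). Within EOM 5 were higher at the synapse than in fibre and 5 lower (median -0.44), and within TA 7 were higher and 1 lower (median 0.51). The 5 higher within EOM were acetylcholine receptor subunits, Lrp4 and Ncam1. All 5 were also among those higher within TA and those higher in EOM fibre than in TA fibre. All but Ncam1 were also junction genes used to check the captures, so the counts within each muscle are not separate from that check. Chrna1 averaged 8.96 in EOM fibre against 5.43 in TA fibre (difference 3.52 ± 0.32), and Myh8, the perinatal myosin, 13.47 against 5.18 (8.29 ± 0.32). Myh3, the embryonic myosin, was higher by 6.40 ± 0.77. Sarcolipin (Sln) was higher by 2.85 ± 0.53. Myog itself differed by 0.03 ± 0.25 between those groups.

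Markers of other cell types moved with these comparisons. Between EOM fibre and TA fibre, 10 of 11 fibroblast, 5 of 12 macrophage and leukocyte, 3 of 15 endothelial and 2 of 13 pericyte and smooth muscle markers were higher and none lower. The same held for 3 of 11 Schwann cell and 2 of 3 neuron and axon markers, where 8.4% of all genes were called higher. Only those 3 of the 13 neuron and axon markers on the array passed the filter on low values. Their summed intensity on TA fibre arrays was 11.1 to 113. Summed fibroblast intensity was 8438 to 26790 on EOM fibre arrays against 2624 to 8266 on TA fibre arrays, and summed macrophage intensity 1545 to 2903 against 748 to 998. Between EOM synapse and TA synapse, 4 of 11 fibroblast, 3 of 11 Schwann cell and 2 of 3 neuron and axon markers were higher and none lower. Of 15 endothelial markers 2 were higher and 1 lower, and of 13 pericyte and smooth muscle markers 1 was higher and 1 lower. No macrophage marker was called there, where 7.82% of all genes were called higher. Summed fibroblast intensity was 18320 to 32570 at the EOM synapse against 10120 to 20260 at the TA synapse, and summed Schwann cell intensity 7600 to 12900 against 3649 to 5805. Within muscles, 4 fibroblast markers were higher and 1 lower at the EOM synapse than in EOM fibre, and 7 were higher at the TA synapse than in TA fibre. At the synapse, 7 of 11 Schwann cell markers were higher than in fibre in both muscles, with summed intensities of 7600 to 12900 at the EOM synapse against 1858 to 2865 in EOM fibre. Endothelial markers ran the other way in both muscles. Of 15 tested, 1 was higher at the synapse and 6 lower within EOM, and 1 was higher and 5 lower within TA. None of these markers was at 0 on any array. Their part in the values of Fst, Cdkn1a, Id2, Heyl and Cxcr4 was not tested.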

How the data were processed

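Captured tissue from 4 rats was hybridised to 16 arrays, 4 a group. Per the labels' protocols, total RNA was isolated with a micro kit, and amplified RNA was set to 600 ng before the second round of labelling. The authors deposited linear intensity values per probe set. The software behind them was not given in the labels or files used. The 2% trimmed mean of each deposited array was 150.06 to 150.08, so the values had been scaled to a common mean. Deposited values carry no detection calls or scan information, so no batch could be tested.

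Of 31099 probe sets, 57 controls were left out. The platform annotation named 1 gene for 20826, several for 436 and none used here for 9780, and no symbol needed updating. Values were taken as log2(intensity + 16) and quantile normalised (R 4.3.3, limma 3.58.1). Probe sets above their array's median on at least 4 arrays were kept, and each gene was read from its brightest probe set on average. A mean per group plus a term per rat was fitted with lmFit, contrasts.fit and eBayes (9 residual and 4.58 prior degrees of freedom). P-values were adjusted by Benjamini-Hochberg in each of 5 contrasts. The fit was tested on simulated data.

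The rat number is read from the titles, and the labels name 4 rats without stating outright that this number is the animal. The rat block and the values with a rat left out rest on that reading. Deviations from the group means correlated at 0.112 on average over 24 same-rat pairs (16 of them over 0.1) and at -0.0374 over 72 other pairs. Alternatives were no block, only the arrays compared, other scalings, filters and pseudocounts, every probe set tested, and each array or rat left out.

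The members and lists were chosen with earlier results of these data known. The text names all members, list genes taken from the up to 4 called of largest difference per list and contrast (not all of them), and the 3 genes most correlated with each member.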

Additional observations from a re-analysis of the deposited data

Results flagged for a closer look

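One result among the 10 genes was a difference between groups by a test of the difference itself. The synapse minus fibre difference of Fst was larger in EOM than in TA by 2.00 on the log2 scale (adjusted p = 0.0326 in limma over all genes tested), in 4 of 4 rats, with 2.39 ± 0.29 in EOM and 0.39 ± 0.29 in TA. In the 40 sets of 4 arrays (10 genes in 4 groups), no array lay past Dixon's critical value for its gap to the other 3.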

How the results depend on the processing

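Of 217 alternative values for the 10 called gene differences, 162 kept the call and 55 kept the direction without it; of 898 for the 40 others, 839 kept direction and side, 10 became calls and 49 turned sign. Without the rat block the 5 counts of called genes were 1383, 1474, 831, 903 and 73 (EOM and TA fibre, EOM and TA synapse, within EOM, within TA, and the junction difference between muscles) against 1620, 1712, 1055, 1066 and 96, and among the genes it ended the Fst junction call and the Cxcr4 fibre call. Fitting only the arrays compared gave 582 genes between the fibre groups and 606 within TA. Median centring gave 1139 between the synapses, 689 within EOM and 56 for the junction difference, which was 46 with a pseudocount of 1 and 218 with 64. Leaving out 1 array or rat gave 924 to 1450 genes between the fibre groups, 903 to 1383 between the synapses, 475 to 936 within EOM, 586 to 915 within TA and 25 to 99 for the junction difference, with the lowest count on leaving out a whole rat (15, 29, 15, 27 and 27 in that order). Higher and lower calls split 1146 to 752 between the fibre groups with values as deposited, where the median of all genes was 0.108, against 875 to 745. With median centring they split 559 to 684 there, 597 to 542 between the synapses (815 to 897 otherwise) and 547 to 142 within EOM (585 to 470). The cause was not tested.

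Signs turned only for differences that were not called. Median centring gave -0.027 for Myod1 and -0.016 for Myog between the fibre groups and 0.024 for Id2 within EOM, values as deposited gave -0.074 for the Id3 junction difference, and a pseudocount of 1 gave 0.069 for Heyl between the synapses. With 1 array or rat left out, differences between the fibre groups ran from -0.071 to 0.37 for Myod1, -0.17 to 0.39 for Myog, -0.16 to 0.54 for Myf6 and -0.35 to 0.49 for Id3. Between the synapses they ran from -0.0088 to 0.46 for Id1, -0.45 to 0.44 for Heyl and -0.024 to 0.23 for Cxcr4. Within EOM, Id2 ran from -0.31 to 0.21, and within TA Id1 ran from -0.66 to 0.078, Id2 from -0.20 to 0.45 and Cxcr4 from -0.052 to 0.30. The junction difference between muscles ran from -0.018 to 0.47 for Myod1, -0.017 to 0.45 for Myog, -0.053 to 0.78 for Myf6, -1.12 to 0.0078 for Id1, -0.69 to 0.085 for Id2 and -0.34 to 0.66 for Id3. Id3 had no value under the stricter filter (above the median on 8 arrays).

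The 4 arrays a group, dim signal for Heyl and Id3, and 1 usable probe set for all genes but Fst and Cxcr4 limit the precision.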
